A study of Mus musculus with 12 samples.

Results

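The transcripts described here are those of 4 adult haemoglobin genes, Hba-a1, Hba-a2, Hbb-bs and Hbb-bt, and of Alas2, the erythroid enzyme of haem synthesis. The 5 genes were taken by symbol, as markers of the blood content of each tissue piece. Each symbol was found at 1 locus, so that 5 of the 33864 loci in the deposited table were members, and 5 of 5 passed the filter for testing.

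Adult haemoglobin is a tetramer of alpha and beta globin chains around haem groups, and it carries oxygen in red blood cells. Hba-a1 and Hba-a2 are a pair of alpha globin genes, and Hbb-bs and Hbb-bt are a pair of beta globin genes. Alas2 makes the first committed compound of haem synthesis in developing red cells, while Alas1 does so in other cells. Mouse red cells lose their nucleus, but young ones keep messenger RNA for a time, so globin transcripts are found in tissue that holds blood.

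The promoters of the 5 genes are shown as a description, and a link between their sequence and the transcript levels was not tested. The windows searched were the 150 bases before each RefSeq start site in GRCm38.p6. RefSeq and GENCODE M21 place some starts differently: all 150 bases for Hba-a1 lie in a GENCODE exon of that gene, as do 3 for Hba-a2, 67 for Hbb-bs, 73 for Hbb-bt and 42 for Alas2. Each line below gives the part of a window outside those exons, 5′ to 3′ on the strand of the gene, and none is given for Hba-a1. Capitals mark 4 short motifs that were searched on both strands. One is TATAA, as in the box found just before many start sites, and another is CCAAT, a box common in globin promoters and read as ATTGG when it lies on the opposite strand. The next is CACCC, the core bound by the erythroid regulator Klf1, or GGGTG on the opposite strand. The last is GATAA, which holds the core bound by the erythroid regulator Gata1, or TTATC on the opposite strand.
Hba-a2 (chr11:32296342-32296488, plus strand): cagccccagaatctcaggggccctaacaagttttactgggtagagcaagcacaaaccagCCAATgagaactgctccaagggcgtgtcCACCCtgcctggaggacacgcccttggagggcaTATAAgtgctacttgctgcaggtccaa
Hbb-bs (chr7:103827929-103828011, minus strand): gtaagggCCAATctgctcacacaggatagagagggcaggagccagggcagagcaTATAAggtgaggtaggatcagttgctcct
Hbb-bt (chr7:103813997-103814073, minus strand): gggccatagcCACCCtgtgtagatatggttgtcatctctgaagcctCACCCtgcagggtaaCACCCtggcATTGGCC
Alas2 (chrX:150547267-150547374, plus strand): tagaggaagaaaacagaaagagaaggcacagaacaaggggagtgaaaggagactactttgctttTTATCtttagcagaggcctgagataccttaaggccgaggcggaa
The capitals at the end of the Hbb-bt line begin a CCAAT that runs past it. Over the full windows, those of Hba-a1 and Hba-a2 shared an identical run of 147 bases, which is the run printed for Hba-a2. For Hbb-bs and Hbb-bt the longest run at any shift was 14 bases. TATAA and CCAAT occurred in the 4 globin windows and not in that of Alas2, CACCC occurred in 5 of 5, and GATAA occurred in that of Alas2, with some of these matches in the parts not printed. Among 32851 windows of the same length, 14.2% held TATAA, 24.5% held CCAAT, 37.4% held CACCC and 13.3% held GATAA. A match is a description of letters and does not show that a factor binds.

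Within each pair the coding regions were nearly the same, which bears on every value for a single globin gene. The stretches below, from GENCODE M21 transcripts, hold the base that differs, in capitals. The coding regions of Hba-a1 and Hba-a2 are 429 bases long and differed at 1 position, coding position 381. Those of Hbb-bs and Hbb-bt are 444 bases long and differed at 1 position, coding position 417.
Hba-a1: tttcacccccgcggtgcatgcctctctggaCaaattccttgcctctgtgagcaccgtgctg
Hba-a2: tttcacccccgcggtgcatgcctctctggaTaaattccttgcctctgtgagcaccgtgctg
Hbb-bs: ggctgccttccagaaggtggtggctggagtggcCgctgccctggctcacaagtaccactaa
Hbb-bt: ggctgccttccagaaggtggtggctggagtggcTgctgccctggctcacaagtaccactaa
Of the 150-base windows of the Hba-a1 transcript, 48.4% occurred unchanged in Hba-a2, and 65.7% of those of Hba-a2 occurred in Hba-a1. The same shares were 58.7% for Hbb-bs in Hbb-bt and 50.7% for Hbb-bt in Hbb-bs. No window was shared between an alpha and a beta globin transcript. Reads from the shared stretches can be assigned to either gene of a pair, so the split within a pair is uncertain, which matters less for the alpha and beta sums. In GRCm38 the alpha genes lie at chr11:32283511-32284465 and chr11:32296489-32297298 on the plus strand. Hbb-bs lies at chr7:103826534-103828096 and Hbb-bt at chr7:103812524-103813996, both on the minus strand, and Alas2 lies at chrX:150547375-150570638 on the plus strand.

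RNA was measured in subcortical white matter of 12 mice, with 1 library per mouse and 3 libraries in each of 4 groups. The dnEGFR mutants were Sox10-tTA;TRE-dnEGFR mice and their littermate controls carried TRE-dnEGFR alone; in both groups doxycycline ran from postnatal day 21 to 35, and the tissue was taken at day 35. The ErbB2V664E mutants were Sox10-tTA;TRE-ErbB2V664E mice and their littermate controls carried TRE-ErbB2V664E alone; in both groups it ran from day 21 to 30, and the tissue was taken at day 30. Sox10 drives the transactivator in the oligodendrocyte lineage, dnEGFR is a dominant-negative epidermal growth factor receptor, and ErbB2V664E is an activated ErbB2. Doxycycline and a responder transgene were therefore common to mutants and controls, and a group with the transactivator alone was not analysed here. The labels do not state in which direction doxycycline acted on the transgenes. Litters 1 to 3 gave the dnEGFR pairs and litters 4 to 6 the ErbB2V664E pairs, in the order of the replicate numbers.

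Values are FPKM, fragments divided by the transcript length in kilobases and by the size of the library, so levels of different genes are compared per length. An estimated 16596869 to 24739584 fragments lay behind each library. The FPKM totals ranged from 117363 to 134410. White matter genes were present in every library, with 427 to 866 FPKM of Mbp, a major myelin protein. Mog, on the outer myelin surface, lay between 6.62 and 29.7 FPKM, the astrocyte gene Gfap between 24.98 and 59.997 FPKM, and the microglial receptor Csf1r between 10.9 and 22.1 FPKM. Ttr, which marks choroid plexus, ranged from 9.49 to 699 FPKM. Mouse Erbb2 stood at 0.9005 ± 0.112 FPKM in ErbB2V664E controls and 0.864 ± 0.0304 in mutants (SD, n = 3). Egfr stood at 3.02 ± 0.348 FPKM in dnEGFR controls and 2.90 ± 0.160 in mutants (SD, n = 3). Neither locus told mutants from controls in the line of its own transgene. In the ErbB2V664E line Egfr lay between 1.88 and 2.01 FPKM in controls and between 1.18 and 1.495 FPKM in mutants. Of the loci tested, 8.96% lay wholly lower in these mutants. Gm28661, a locus like a mitochondrial gene, held 5589 to 6563 FPKM in the 6 libraries of the ErbB2V664E line and at most 0.000146 FPKM in the 6 of the dnEGFR line. A rescaling without it left each member on the same side of the threshold.

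Haemoglobin transcripts were present in all 12 libraries, and their level differed widely between mice, also within a group. The summed FPKM of the 4 globin genes ranged 12.7-fold, from 21.8 in ErbB2V664E mutant 3 to 277 in dnEGFR mutant 2, which was 0.0162% and 0.220% of the FPKM of those libraries. By mean FPKM, Hba-a1 ranked 415, Hbb-bs 530, Hba-a2 552, Hbb-bt 739 and Alas2 12129 among 33864 loci. The coefficient of variation over the 12 libraries was 50.1% to 60.4% for the 5 members, against a median of 27.1% for the 13803 loci tested. In such bulk tissue, fewer red cells and less RNA per cell cannot be told apart.

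**Figure D1:**
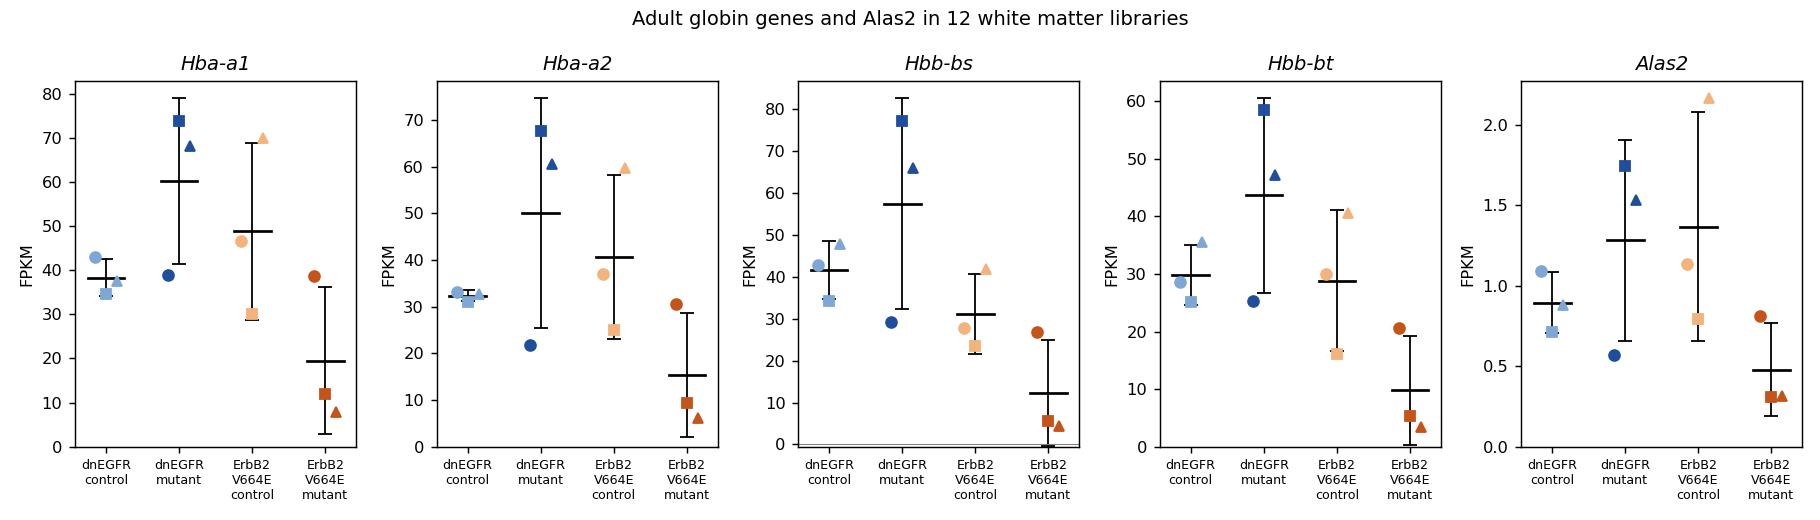
FPKM (y axis) of the 5 genes in the 4 groups (x axis); points are libraries with a symbol per replicate number, long bars are group means and error bars the SD of n = 3. For the 4 globin genes, ErbB2V664E mutants 2 and 3 lay below the other 10 libraries, while ErbB2V664E mutant 1 lay among the controls.

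In the dnEGFR line, 2 of 3 mutants had more haemoglobin transcript than any control, and the third had less. The summed globin level was 148, 125 and 154 FPKM in controls 1 to 3 and 115, 277 and 242 FPKM in mutants 1 to 3. Controls lay close together, mutants 2 and 3 lay above them, mutant 1 lay below them, and the groups overlapped. Within litters 1, 2 and 3 the mutant held 0.780, 2.22 and 1.57 times the level of its littermate.

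The alpha globin Hba-a1 was at 42.9, 34.6 and 37.5 FPKM in dnEGFR controls and at 38.8, 73.9 and 68.1 FPKM in mutants. Mutant 1 lay inside the control range and the other two above it. The group levels were 38.4 ± 4.22 and 60.3 ± 18.8 FPKM (SD, n = 3), and the log2(FPKM + 1) difference was 0.59 (SE 0.50, limma adjusted p = 0.987). Its near copy Hba-a2 was at 33.2, 31.0 and 32.7 FPKM in controls and at 21.9, 67.7 and 60.6 FPKM in mutants. The Hba-a2 controls differed little from each other, and mutant 1 lay outside them on the low side, with the other two on the high side. The log2 difference was 0.46 (SE 0.57, limma adjusted p = 0.998).

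The beta globin Hbb-bs was at 42.9, 34.1 and 47.9 FPKM in dnEGFR controls and at 29.2, 77.3 and 65.9 FPKM in mutants, a log2 difference of 0.36 (SE 0.57, limma adjusted p = 1). Hbb-bt was at 28.7, 25.2 and 35.6 FPKM in controls and at 25.3, 58.5 and 47.2 FPKM in mutants, a log2 difference of 0.47 (SE 0.56, limma adjusted p = 0.998). For both beta genes, as for the alpha genes, mutants 2 and 3 lay above all controls, with mutant 2 highest. Alas2, at a much lower level, was at 1.09, 0.713 and 0.877 FPKM in controls and at 0.570, 1.75 and 1.53 FPKM in mutants, a log2 difference of 0.23 (SE 0.26, limma adjusted p = 0.995). Mutant 1 was the lowest of the 6, and mutants 2 and 3 lay above the controls.

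In this line 0 of 5 members passed the threshold, where 0.0942% of the loci tested did, and 0 of 5 had an unadjusted p under 0.05, where 5.69% did. No member had mutants that all lay above the controls, as 5.58% of the loci did, or all below, as 4.57% did. The 95% interval of the Hba-a1 difference ran from -0.53 to 1.71 on the log2 scale. The adjusted p of the members lay between 0.926 and 1 over the alternatives that evaluated them.

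In the ErbB2V664E line, 2 of 3 mutants had the lowest haemoglobin transcript levels of the series, and mutant 1 lay within the range of the controls. The summed globin level was 142, 94.7 and 212 FPKM in controls 1 to 3 and 117, 32.2 and 21.8 FPKM in mutants 1 to 3. Mutants 2 and 3 lay below each control, mutant 1 lay between controls 1 and 2, and the groups overlapped. Within litters 4, 5 and 6 the mutant held 0.825, 0.340 and 0.103 times the level of its littermate, so that the control of litter 6, which was the highest control, held 9.75 times the level of its littermate mutant.

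**Figure D2:**
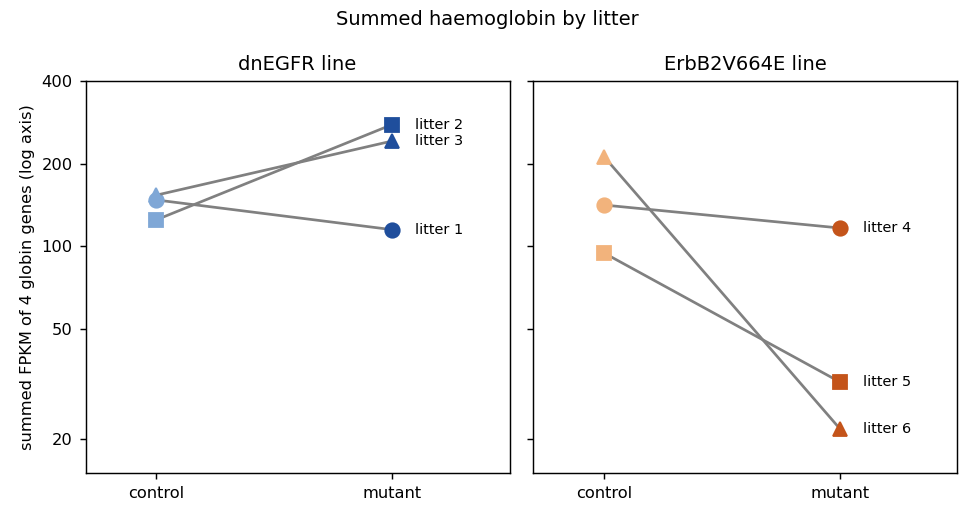
Summed FPKM of the 4 globin genes (y axis, log scale) in the control and the mutant of each litter (x axis), joined by a line, for the dnEGFR line (left) and the ErbB2V664E line (right). The mutant was above its littermate in litters 2 and 3 and below it in litters 1, 4, 5 and 6, by 9.75-fold in litter 6.

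Hba-a1 was at 46.6, 30.1 and 69.9 FPKM in ErbB2V664E controls and at 38.6, 11.8 and 7.94 FPKM in mutants. The group levels were 48.8 ± 20.03 and 19.5 ± 16.7 FPKM (SD, n = 3), and the log2 difference was -1.51 (SE 0.50, 95% interval -2.63 to -0.39, limma adjusted p = 0.251). Mutant 1 lay inside the control range, and the other mutants stood well below it. Hba-a2 was at 37.1, 24.98 and 59.7 FPKM in controls and at 30.5, 9.24 and 6.14 FPKM in mutants, with a log2 difference of -1.57 (SE 0.57, limma adjusted p = 0.294). The pattern over the libraries was that of Hba-a1, with which it shares reads.

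Hbb-bs was at 27.9, 23.6 and 42.0 FPKM in ErbB2V664E controls and at 27.0, 5.72 and 4.33 FPKM in mutants. The log2 difference was -1.64 (SE 0.57, limma adjusted p = 0.272). Hbb-bt was at 30.03, 16.1 and 40.5 FPKM in controls and at 20.7, 5.37 and 3.35 FPKM in mutants, and an estimated 51 fragments lay behind the lowest of these. Its log2 difference was -1.73 (SE 0.56, 95% interval -2.98 to -0.48, limma adjusted p = 0.238), the farthest from 0 of the 5 members. For both beta genes mutant 1 lay above control 2 and the other mutants lay below all controls.

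Alas2 was at 1.14, 0.796 and 2.16 FPKM in ErbB2V664E controls and at 0.812, 0.309 and 0.315 FPKM in mutants. An estimated 13 fragments (95% Poisson interval 6.9 to 22.2, counting error only) lay behind the value of mutant 2. The log2 difference was -0.65 (SE 0.26, limma adjusted p = 0.347). Alas2 reached the filter level of 1 FPKM in 5 libraries, none of them an ErbB2V664E mutant, and at so low a level the scale of log2(FPKM + 1) understates a change.

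In this line 0 of 5 members passed the threshold, where 0.275% of the loci tested did. All 5 differences were negative with an unadjusted p under 0.05, as had 12.1% of the loci in either direction, but the members share reads and libraries and are not independent of each other. No member had mutants that all lay below the controls, as 8.96% of the loci did, or all above, as 9.28% did. ErbB2V664E mutant 1 decided the call: without it Hba-a1 (log2 -2.14, limma adjusted p = 0.0259), Hbb-bs (-2.38, adjusted p = 0.0237) and Hbb-bt (-2.41, adjusted p = 0.0283) passed, and Hba-a2 (adjusted p = 0.0589) did not. Without that library 262 loci passed in place of 38. The adjusted p of the members lay between 0.0237 and 0.651 over the alternatives that evaluated them.

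**Figure D3:**
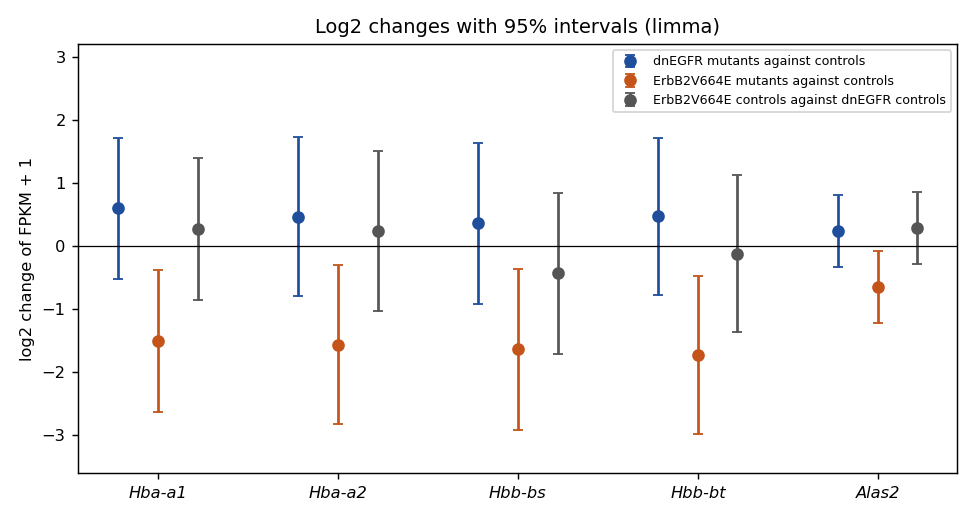
Log2 differences of FPKM + 1 (y axis) for the 5 genes (x axis) with 95% intervals from limma, in dnEGFR mutants against controls, ErbB2V664E mutants against controls, and ErbB2V664E controls against dnEGFR controls. The ErbB2V664E differences lie between -1.73 and -0.65 and those of dnEGFR between 0.23 and 0.59.

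The difference between the effects of the lines was tested in the same fit. It was -2.10 for Hba-a1, -2.03 for Hba-a2, -1.999 for Hbb-bs, -2.20 for Hbb-bt and -0.89 for Alas2 on the log2 scale, each with an opposite sign of the mutant difference in the 2 lines. The limma adjusted p lay between 0.443 and 0.521, so that 0 of 5 members passed, where 0.116% of the loci tested did. All 5 had an unadjusted p under 0.05, as had 9.01% of the loci. The adjusted p lay between 0.0696 and 0.711 over the alternatives that evaluated the members. The lines also differed in age and in the length of doxycycline treatment, and these cannot be told apart.

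The controls of the lines did not differ in the level of any member by more than the spread between mice. The log2 difference of ErbB2V664E against dnEGFR controls was 0.27 for Hba-a1, 0.23 for Hba-a2, -0.44 for Hbb-bs, -0.12 for Hbb-bt and 0.28 for Alas2, with limma adjusted p from 0.480 to 0.905. Here 0 of 5 members passed, where 20% of the loci tested did, no member had an unadjusted p under 0.05, where 34.3% of the loci did, and 0 of 5 had groups that did not overlap, where 21.6% of the loci lay wholly higher and 19.8% wholly lower. Without ErbB2V664E control 3 the differences of Hba-a1 and Hba-a2 turned to -0.029 and -0.082. That of Hbb-bt turned to 0.23 without ErbB2V664E control 2 and to 0.0066 without dnEGFR control 3.

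While the levels of the controls overlapped, the balance of alpha to beta globin transcript did not. The ratio of summed alpha to summed beta globin FPKM was 1.06, 1.11 and 0.841 in dnEGFR controls and 1.12, 1.04 and 1.14 in dnEGFR mutants. It was 1.44, 1.39 and 1.57 in ErbB2V664E controls and 1.45, 1.90 and 1.83 in ErbB2V664E mutants. Each library of the ErbB2V664E line lay above each library of the dnEGFR line, at any level of haemoglobin transcript. The means were 1.60 and 1.05 (difference 0.547, n = 6 and 6, two-sided exact permutation p = 0.00216, the smallest such a design can give, 0.0346 after adjustment over the 16 ratio tests made).

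The ratio was examined after its values had been seen. Its direction was the same in controls alone (difference 0.464) and in mutants alone (0.630), each with an exact permutation p of 0.1, the smallest that 3 against 3 can give. It was 0.487 to 0.589 with any 1 library left out. The 6 against 6 test treats littermates as independent. Over litter means, 3 litters against 3, the difference was 0.547 with an exact permutation p of 0.1, the smallest possible, so the call does not stand over litters. Line, age, length of doxycycline treatment and the locus Gm28661 divide the libraries in the same way, and cannot be told apart. The sources used here do not say if the 2 lines shared library preparation and processing, which bears on every value set between the lines. Between mutants and controls the alpha to beta ratio differed by no more than its spread, by 0.0952 in the dnEGFR line (exact permutation p = 0.4, n = 3 and 3) and by 0.261 in the ErbB2V664E line (exact permutation p = 0.2, n = 3 and 3), where 0.1 is the smallest p possible.

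**Figure D4:**
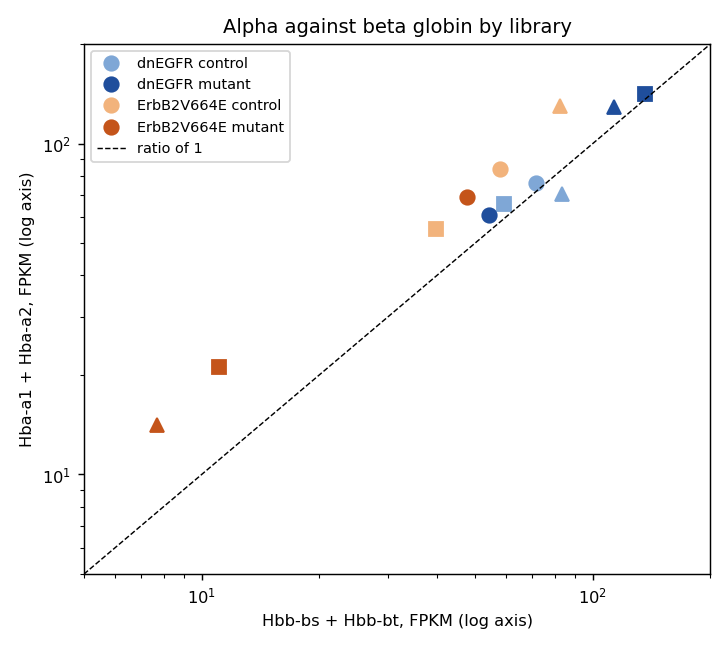
Summed alpha globin FPKM (y axis, log scale) against summed beta globin FPKM (x axis, log scale) in the 12 libraries, coloured by group, with a symbol per replicate number and a dashed line at a ratio of 1. The ErbB2V664E libraries lie at ratios of 1.39 to 1.90 and the dnEGFR libraries at 0.841 to 1.14.

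Alas2 relative to haemoglobin was higher in the ErbB2V664E line when libraries were counted singly, and not past the threshold over litters. Per 1000 FPKM of summed globin, Alas2 stood at 9.61 in the ErbB2V664E line and 6.06 in the dnEGFR line (n = 6 and 6, exact permutation p = 0.00433, adjusted p = 0.0346 over the 16 tests). This ratio too was examined after its values had been seen. Over litter means the exact permutation p was 0.1 (n = 3 and 3, the smallest possible), and between controls alone the difference was 2.62 with an exact permutation p of 0.1 (adjusted p = 0.306, n = 3 and 3). The lines overlapped, since dnEGFR control 1 was at 7.37 and ErbB2V664E mutant 1 at 6.95. The highest value, 14.5 in ErbB2V664E mutant 3, rests on an estimated 14 fragments of Alas2. Within the pairs, Hba-a1 over Hba-a2 lay between 1.09 and 1.78 and Hbb-bs over Hbb-bt between 0.929 and 1.496. The 1.78 belonged to dnEGFR mutant 1, and the next highest value was 1.29. Neither of these ratios passed between the lines (exact permutation p = 0.978 and p = 0.115, n = 6 and 6), and reads shared within a pair limit both.

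The 5 members varied together over the libraries. Pearson correlations of log2(FPKM + 1) over the 12 libraries were 0.970 to 0.985 for 4 of the 6 globin pairs, with 0.953 and 0.955 for the pairs of Hbb-bs with the alpha genes, and 0.809 to 0.922 between Alas2 and the globin genes. The points share the groups, litters and library scaling, and within each globin pair the reads. Without ErbB2V664E mutants 2 and 3, the libraries farthest from the median, the range over all pairs was 0.656 to 0.941. The lowest was that of Hbb-bs with Alas2 and the highest that of the alpha pair.

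Many other genes listed for red cells and their precursors lay below the filter for testing. Of 9 listed embryonic and alternative globin genes, 3 were in the table and 0 reached the filter. The others, Hbb-b1 and Hbb-b2 among them, were not in the table, which does not show that their level was low. The embryonic beta-like globin Hbb-y averaged 0.03 FPKM, and the theta globins Hbq1a and Hbq1b averaged 0.577 and 0.253 FPKM. Hbq1a, singled out after its values were seen, lay between 0.567 and 1.16 FPKM in ErbB2V664E mutants and between 0.166 and 0.401 FPKM in their controls. That is the opposite direction to the adult globins, at a low level, and 9.28% of the loci tested lay wholly higher in these mutants. Hbq1a was not tested because too few libraries reached the filter. Slc4a1, the anion exchanger of the red cell membrane, averaged 0.0304 FPKM. Gata1 was listed at 0 in 11 of 12 libraries. Of the genes listed for the red cell membrane and reticulocytes and for erythroid regulation, 18 in the table were below the filter, Slc4a1, Gata1, Klf1 and Rhag among them. Their highest value in any library was 0.628 FPKM, and 14 of the 18 stayed under 0.25 FPKM in all 12 libraries. The filter itself keeps such values low.

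Haem synthesis genes other than Alas2, which other cells also use, showed little of the haemoglobin pattern in their median difference. All 12 listed were tested, and 0 of 12 passed in either mutant comparison, where 0.0942% of the loci tested did in dnEGFR and 0.275% in ErbB2V664E. The members did not pass either, so this count does not set the list apart from them. The median log2 differences of the list were 0.06 in dnEGFR and 0.04 in ErbB2V664E mutants, against 0.0054 and 0.0044 over all loci tested. The most abundant genes of the list were Fech, which inserts iron into the ring, at a mean of 12.6 FPKM, Tmem14c, a porphyrin carrier of mitochondria, at 12.4 FPKM and Cpox, an oxidase of the pathway, at 9.82 FPKM. Their correlations with summed globin over the 12 libraries were -0.71, 0.60 and 0.09, and -0.16, 0.30 and -0.06 without the 2 libraries farthest from the median. No gene of this list exceeded 0.8. Between the controls of the lines 3 of 12 passed, where 20% of all loci tested did: Slc25a38, a mitochondrial glycine carrier, was higher in ErbB2V664E controls (limma adjusted p = 0.0388), and the enzymes Uros (adjusted p = 0.0364) and Ppox (adjusted p = 0.0485) were lower.

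Of 25 listed genes of the red cell membrane and of reticulocytes, 9 were tested, and 0 of 9 passed in either mutant comparison. The share of all loci tested that passed was 0.0942% in dnEGFR and 0.275% in ErbB2V664E. The median log2 difference of these 9 genes was 0.10 in dnEGFR and 0.14 in ErbB2V664E mutants. Abundant ones were Bnip3l, which acts in the removal of mitochondria from maturing red cells, at 19.4 FPKM and Mkrn1, a ubiquitin ligase, at 17.5 FPKM. Between the controls of the lines Mkrn1 (limma adjusted p = 0.0143) was lower in ErbB2V664E, in a comparison that called 20% of loci.

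Erythroid regulators and iron genes gave no call in the mutants. Of 10 listed regulators and receptors 6 were tested and of 12 genes of haem and iron handling 9 were tested. In either mutant comparison 0 passed, where 0.0942% of the loci tested did in dnEGFR and 0.275% in ErbB2V664E. With shares so low, 0 calls among so few genes says little about them. Between the controls of the lines, in a comparison that called 20% of the loci tested, Tfrc, the transferrin receptor, was at 16.6 FPKM in dnEGFR and 6.77 FPKM in ErbB2V664E controls (log2 -1.19, limma adjusted p = 0.000427). Slc40a1, the iron exporter, was lower too (log2 -0.64, limma adjusted p = 0.00269), and Fth1, the ferritin heavy chain, was higher (log2 0.94, limma adjusted p = 0.0198). Zfpm1 (log2 0.68, limma adjusted p = 0.0229) and Bcl11a (log2 0.58, limma adjusted p = 0.0347), which encode transcription factors used in erythroid and other cells, were higher. The globins of nervous tissue, neuroglobin Ngb and cytoglobin Cygb, averaged 0.730 and 5.18 FPKM and did not pass in any comparison.

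Few genes listed for blood cells other than red cells reached the filter. Of 14 neutrophil genes 11 were in the table and 1 was tested, of 11 platelet genes 11 and 2, and of 12 lymphocyte genes 11 and 1. None of these passed in a mutant comparison, where 0.0942% of the loci tested did in dnEGFR and 0.275% in ErbB2V664E. The defining genes S100a8 of neutrophils, Ppbp and Pf4 of platelets and Cd3e of T cells averaged 0.0333, 0.0418, 0.141 and 0.0077 FPKM. The tested genes averaged more, with 1.05 FPKM for Csf3r, a neutrophil growth factor receptor, 1.06 and 54.4 FPKM for Gp1ba and Gp1bb, subunits of a platelet receptor, and 6.40 FPKM for Cd4, a co-receptor of T cells. The Gp1bb locus is joined with its neighbour Sept5, so its value cannot be given to platelets. The list sums lay between 1.24 and 2.31 FPKM for neutrophils, 45.2 and 79.3 FPKM for platelets and 4.40 and 10.6 FPKM for lymphocytes over the 12 libraries. A large part of each sum was 1 gene. Csf3r alone lay between 0.607 and 1.54 FPKM, Gp1bb between 43.7 and 76.8 FPKM and Cd4 between 3.93 and 10.02 FPKM. The sums are therefore no measure of the content of these blood cells.

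Vessel genes as a sum varied much less than haemoglobin. The summed level of 20 endothelial genes ranged from 125 to 166 FPKM over the dnEGFR mutants and from 135 to 151 FPKM over the ErbB2V664E mutants, against 127 to 140 and 142 to 153 FPKM in their controls. The 12 mural cell genes summed to 50.4 to 78.3 FPKM in ErbB2V664E mutants and 72.2 to 76.0 FPKM in their controls. Some single genes ranged more widely than the sums over the 12 libraries. Examples are the endothelial Slc2a1 (8.31 to 29.3 FPKM) and Itm2a (9.39 to 37.8 FPKM) and the mural Rgs5 (3.70 to 36.8 FPKM). In ErbB2V664E mutants 1 of 20 endothelial genes passed, where 0.275% of the loci tested did. This was Vwf, the von Willebrand factor, which was higher (0.964 against 2.91 FPKM, log2 0.97, limma adjusted p = 0.0449). Its correlation with summed globin over the 12 libraries was -0.88, and -0.30 without the 2 farthest. Pecam1, an adhesion molecule of endothelium, lay between 2.73 and 4.54 FPKM throughout. Cldn5, the tight junction gene of brain endothelium, was listed at 0 in some libraries of 3 groups and at up to 14.8 FPKM in others, which can be a failed estimate.

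**Figure D5:**
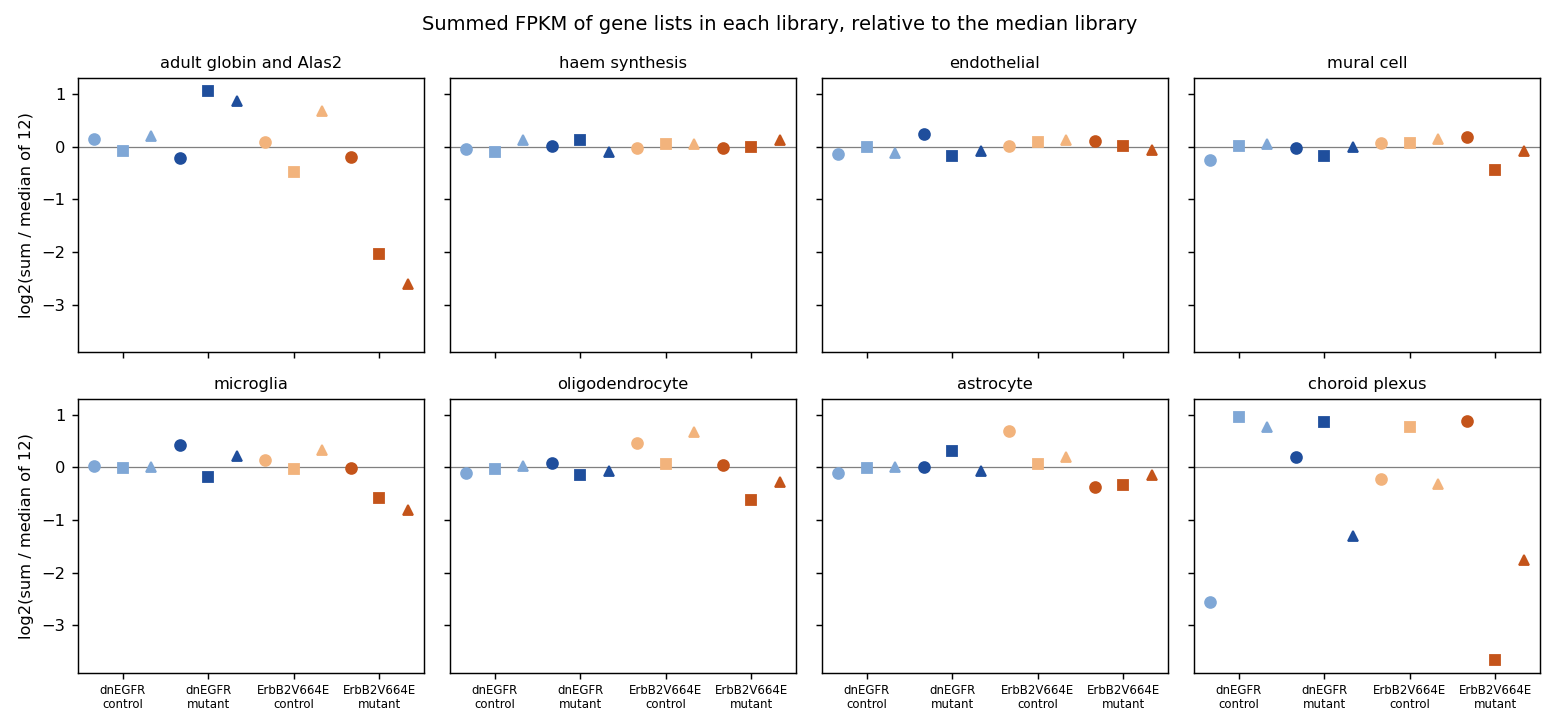
Summed FPKM of 8 gene lists in each of the 12 libraries (x axis, by group, with a symbol per replicate number) as log2 of the ratio to the median library (y axis). Haem synthesis and endothelial sums stay close to 0, adult globin and Alas2 are lowest in ErbB2V664E mutants 2 and 3, and of these 8 the choroid plexus sums vary the most, from 34.3 to 844 FPKM.

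Marker sums of some other cell types were also low in ErbB2V664E mutants 2 and 3. Microglial genes summed to 118, 79.3 and 68.4 FPKM in ErbB2V664E mutants 1 to 3, against 116 to 150 FPKM in their controls. Of these genes 0 of 12 passed, in a comparison that called 0.275% of the loci tested. Oligodendrocyte genes summed to 1267, 799 and 1011 FPKM in these mutants, against 1284 to 1941 FPKM, and 1 of 10 passed, Mag, a myelin glycoprotein (log2 -1.22, limma adjusted p = 0.0449). Astrocyte genes summed to 205, 210 and 241 FPKM in these mutants, against 278 to 430 FPKM, and 0 of 7 tested passed. In the astrocyte sum mutant 1 also lay below all controls, which it did not for haemoglobin. In the oligodendrocyte sum it lay only just below the lowest control, at 1267 against 1284 FPKM. Cldn11, 1 gene of that sum, ranged from 36.2 to 243 FPKM within these controls. Choroid plexus genes summed to 795, 34.3 and 128 FPKM in these mutants and to 347 to 741 FPKM in their controls, with 0 of 9 past the threshold, and were also low, at 73.9 and 176 FPKM, in dnEGFR control 1 and dnEGFR mutant 3. The latter library held much haemoglobin transcript, so the choroid plexus and globin levels were not low in all the same libraries. The part of any of these in the haemoglobin levels was not tested. Between the controls of the lines, where 20% of loci passed, Cdh5, Slc2a1, Eng, Notch3, C1qb, Sall1, Sox10, Rbfox3 and Gfap were higher in ErbB2V664E controls among the cell type markers, and Slco1a4, Itm2a, Higd1b, Aif1, Nefm and Stmn2 were lower.

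Over the 13803 loci tested, 118 had a correlation above 0.8 with summed globin across the 12 libraries and 128 one below -0.8. The 118 include the 5 members, of which the 4 globin genes make up the sum itself. The points share groups and library scaling. Outside the members the most alike was Hmgcs1, which makes the precursor of mevalonate, with r = 0.97 (0.88 without ErbB2V664E mutants 2 and 3). Hmgcs1 averaged 68.6 FPKM in dnEGFR controls, 70.9 FPKM in dnEGFR mutants, 58.5 FPKM in ErbB2V664E controls and 27.2 FPKM in ErbB2V664E mutants. The next were Gm3531 (r = 0.93), Nsdhl (0.93), Trappc10 (0.92), Cbl (0.91), Fgd3 (0.91), Rbm28 (0.90), Idi1 (0.90), March8 (0.90) and Idh1 (0.90). Without those 2 libraries these 9 had r between 0.32 and 0.59, so their likeness rested on them.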

How the data were processed

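RNA of subcortical white matter from 12 mice was measured as poly(A) RNA read from both ends by Illumina HiSeq sequencing, per the labels' protocols, which name no step that keeps the strand. The deposited table holds FPKM, which the authors calculated in StringTie according to the design text of the series. HISAT is also named, without a version, in the submitters' processing notes. No build or annotation is named in the sources used here. The table held 0 columns of no sample.

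The 5 members, the gene lists and the tests were chosen with earlier results of these data known. Symbols were read from the locus with the highest mean FPKM. Log2(FPKM + 1) was tested with limma 3.58.1 in R 4.3.3, as 1 mean per group over 12 libraries with a variance trend, two-sided, 8 residual and 2.03 prior degrees of freedom. Loci with 1 FPKM in at least 3 libraries (13803) were tested, with Benjamini-Hochberg adjustment over them and a threshold of 0.05. The fit was tested on simulated data. P-values measure the spread between mice. The sum of the globin members got no test. Ratios were compared by exact permutation after their values had been seen, adjusted over 16 tests.

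The labels name the littermate of each mutant, so replicate numbers pair the libraries within a line. Deviations from the group means correlated at 0.016, 0.009, 0.033, -0.004, 0.010 and -0.025 in litters 1 to 6. Named were the members, listed genes past the threshold in a comparison, defining tissue genes, the 3 most abundant haem synthesis and red cell genes and any of these with r above 0.8, and the 10 loci most correlated with summed globin. Other genes, such as Slc4a1, Gata1 and the blood cell markers, were named after their values were seen. Some genes under this rule are not reported here.

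Fragments per library were estimated from the FPKM step of 1 fragment in 14221 loci with 1 GENCODE M21 transcript. Intervals from them cover counting error only. Alternatives were another pseudocount, filters, scalings, the litter block, a fit per line, a haemoglobin covariate and each library left out. The haemoglobin covariate served for the counts of loci called and not for the members. Sequences came from RefSeq GRCm38.p6 promoters, where 5 of 5 members matched, and GENCODE M21 transcripts. Other steps ran in Python 3.11.15 with numpy 2.4.6 and pandas 2.3.3, and plots were drawn with matplotlib 3.10.9.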

Additional observations from a re-analysis of the deposited data

How the results depend on the processing

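No member passed in the dnEGFR, difference or control comparison under any alternative that evaluated it, and in ErbB2V664E the alternative without mutant 1 was the exception for 3 members. The litter block left 3, 7 and 4 loci called in the dnEGFR, ErbB2V664E and difference comparisons (13, 38 and 16 in the report), changed no member's call, and could not be fitted between controls, since litters lie within lines. A fit per line called 22 and 23. A filter of 5 FPKM, which left out Alas2, called 7 loci in ErbB2V664E, 7 in the difference and 1766 of 2761 between controls. With summed globin as a covariate, 5 and 3 loci were called in ErbB2V664E and the difference. With 1 library left out the counts were 9 to 36 in dnEGFR, 16 (without mutant 2) to 262 (without mutant 1) in ErbB2V664E, 15 to 42 in the difference and 1810 to 2787 between controls. In the last, with 1 library left out, Hba-a1 ranged from -0.029 (without ErbB2V664E control 3) to 0.57, Hba-a2 from -0.082 (without the same library) to 0.53, and Hbb-bt from -0.41 to 0.23 (without ErbB2V664E control 2), with 0.0066 without dnEGFR control 3. The alpha to beta difference between the lines was 0.464 in controls only and 0.630 in mutants only, and 0.547 over litter means, each 3 against 3, which cannot reach the threshold. These alpha to beta alternatives and a rescaling without Gm28661 were chosen after seeing the data. With upper quartile scaling 18 of 29 calls were higher in ErbB2V664E and 1182 of 3017 between controls (19 of 38 and 1502 of 2761 in the report). The causes were not tested.

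The depth limits Alas2, with an estimated 13 to 89 fragments per library, more than it limits the globin genes, with 51 to 1043.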
